A study of Mus musculus with 3 samples.

Results

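The MHC class II genes and costimulators are 10 genes chosen by name: the class II chain genes H2-Aa, H2-Ab1 and H2-Eb1, the invariant chain gene Cd74, the peptide-loading genes H2-DMa, H2-DMb1 and H2-DMb2, the transactivator gene Ciita, and the costimulator genes Cd86 and Cd80. All 10 had a row among the 13242 genes of the deposited table of unique molecular identifier (UMI) counts, in which each UMI stands for 1 captured transcript. The cells were sorted as macrophages from the quadriceps of mice, 1 week after surgery that removed a volume of muscle. All mice had this injury, and the groups differ in what the wound received: polycaprolactone (PCL), a synthetic polyester; urinary bladder matrix (UBM), a decellularised scaffold; or saline, the control without a scaffold. Each condition is 1 library of a 10x 3′ droplet assay. The strain, age, number of mice and sort gate are not stated in the labels.

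MHC class II molecules are surface proteins that show peptides from engulfed material to CD4 T cells. An alpha and a beta chain pair in the endoplasmic reticulum with the invariant chain, which blocks the groove until proteases degrade it and H2-DM exchanges its last fragment for a peptide. CIITA, a coactivator that does not bind DNA itself, is recruited to the X and Y boxes of class II promoters by the RFX complex, CREB and NF-Y, and CD86 and CD80 bind CD28 on the T cell as a second signal. In macrophages the class II genes are known to be induced by interferon gamma, and blood monocytes that enter a wound can acquire them.

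The PCL library held 1753 cells and 11006118 UMIs, the UBM library 2280 cells and 14586276 UMIs, and the saline library 341 cells and 1888343 UMIs. Levels are UMIs summed over cells per 1000000 UMIs of the same cells (CPM), and all intervals are 95% intervals for counting error only. A count of 0 allows up to 0.273 CPM in PCL, 0.206 CPM in UBM and 1.59 CPM in saline. With 1 library per condition, no difference between conditions was tested. The macrophage markers were detected in each library, 10 of 10, at a summed 23452 CPM in PCL, 17158 CPM in UBM and 32420 CPM in saline. Of the other cell types, the dendritic cell markers (16 of 19 measured, 1, 0 and 2 of them at 0) summed to 214 CPM in PCL, 427 CPM in UBM and 554 CPM in saline, with Zbtb46 at 0.18 CPM in PCL, 0.96 CPM in UBM and 1.59 CPM in saline. The neutrophil markers (8 of 8 measured) summed to 1652 CPM in PCL, 69.9 CPM in UBM and 223 CPM in saline, and reached 56946 CPM in cluster F2 of PCL, 7923 CPM in F2 of UBM and 36405 CPM in F2 of saline. The muscle fibre markers (8 of 8) summed to 39.2 CPM in PCL, 47.9 CPM in UBM and 707 CPM in saline, and the only measured B cell marker of 10 listed was at 5.18 CPM in PCL, 7.47 CPM in UBM and 16.4 CPM in saline. The monocyte markers (10 of 10) summed to 3458 CPM in PCL, 2181 CPM in UBM and 1563 CPM in saline, the T and NK cell markers (5 of 11 measured) to 1.999 CPM in PCL, 36.7 CPM in UBM and 3.71 CPM in saline, and the fibroblast markers (6 of 6) to 79.2 CPM in PCL, 31.2 CPM in UBM and 45.01 CPM in saline. The part of these cells and RNAs in the class II values was not tested.

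The promoters of 4 members are shown because they carry an X-type or X2-type motif paired with a Y-type motif. The members on the chromosome 17 class II region are, on GRCm38, H2-DMa (chr17:34119541-34139101, plus strand), H2-DMb2 (chr17:34143307-34151555, plus), H2-DMb1 (chr17:34153072-34160230, plus), H2-Ab1 (chr17:34257689-34269419, plus), H2-Aa (chr17:34282744-34287823, minus) and H2-Eb1 (chr17:34305867-34316674, plus). All are protein-coding genes. Ciita, Cd86 and Cd80 lie on chromosome 16. The stretches below come from RefSeq promoters on GRCm38.p6, each read 5′ to 3′ on the gene's own strand. H2-DMb2 is at chr17:34145108-34145188, H2-DMb1 at chr17:34153079-34153159, H2-Aa at chr17:34287842-34287917 (minus strand) and H2-Eb1 at chr17:34305758-34305837. Capitals mark the letters AACNNATG (X-type) or, in H2-Aa, the palindrome TGACGTCA (X2-type), and ATTGG (Y-type).
H2-DMb2: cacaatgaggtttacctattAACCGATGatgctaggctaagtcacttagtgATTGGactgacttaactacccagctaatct
H2-DMb1: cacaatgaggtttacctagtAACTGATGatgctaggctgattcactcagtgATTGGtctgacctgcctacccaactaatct
H2-Aa: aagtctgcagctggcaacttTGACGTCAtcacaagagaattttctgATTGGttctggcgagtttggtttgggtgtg
H2-Eb1: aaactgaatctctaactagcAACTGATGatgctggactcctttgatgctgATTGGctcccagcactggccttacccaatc

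From the first base of the X-type match to the first base of ATTGG there were 31 bases in H2-DMb2, 31 in H2-DMb1 and 30 in H2-Eb1. In H2-Aa, which had no X-type match in the window, there were 26 bases from the X2-type palindrome, a different element. Among the 32851 RefSeq mouse promoters of 300 bases, searched on both strands, AACNNATG was in 8.86%, TGACGTCA in 1.79% and ATTGG in 37.4%. Either of the first 2 followed by ATTGG within 15 to 45 bases, both read on the gene's own strand, was in 77 promoters (0.234%). Pairs on the opposite strand were not counted. The letters were chosen after these sequences had been read, so the matches are a description. Promoters were matched for 6 of the 10 members, and in those of H2-DMa and Cd80 the pair was not in the window.

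The class II chains and Cd74 were lower in both scaffold libraries than in saline. H2-Aa, the alpha chain of the I-A molecule, was at 2487 CPM in PCL and 1408 CPM in UBM, against 5701 CPM in saline. H2-Ab1, the I-A beta chain, was at 2518 CPM in PCL and 1424 CPM in UBM, against 5815 CPM in saline. H2-Eb1, the I-E beta chain, was at 1703 CPM in PCL and 1070 CPM in UBM, against 4292 CPM in saline. For each of the 3 chains saline was highest and UBM lowest, and no intervals overlapped. Cd74, which encodes the invariant chain, was at 7890 CPM in PCL and 4701 CPM in UBM, against 16068 CPM in saline. Summed over these 4 genes, the level was 14598 CPM in PCL, 8603 CPM in UBM and 31876 CPM in saline, which is 2.18-fold lower in PCL than in saline (interval 2.16 to 2.20) and 3.71-fold lower in UBM than in saline (3.67 to 3.74). PCL was 1.70-fold above UBM (1.68 to 1.71), but this fell to 0.778 when FP1 and RP3, where all 3 libraries have 50 cells or more, were given equal weight. Without cluster R1, which holds 13.5% of saline cells and 12.7% of UBM cells but 0.799% of PCL cells, PCL was 2.65-fold above UBM.

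Over all cells, the peptide-loading genes followed the chains against saline but not between the scaffolds. H2-DMa, the alpha chain of H2-DM, was at 201 CPM in PCL and 210 CPM in UBM, against 530 CPM in saline. H2-DMb1, an H2-DM beta chain, was at 181 CPM in PCL and 163 CPM in UBM, against 567 CPM in saline. The scaffolds lay close together for both genes over all cells. PCL over UBM was 0.956 (0.905 to 1.01) for H2-DMa and 1.11 (1.04 to 1.18) for H2-DMb1, beside 1.77 (1.74 to 1.80) for H2-Aa. The H2-DMa ratio lay on either side of 1 over the scalings and cell choices run for single genes, from 0.878 to 1.10. Within clusters it was 0.841 (0.684 to 1.04) in FP1, 1.24 (0.793 to 1.86) in RP2 and 0.416 (0.307 to 0.557) in RP3. For H2-DMb1 the ratio was 0.990 (0.761 to 1.31) in FP1, 2.12 (1.41 to 3.11) in RP2 and 0.465 (0.322 to 0.659) in RP3. H2-DMb2, the other H2-DM beta chain, was rare, with 31 UMIs in PCL (2.82 CPM), 95 in UBM (6.51 CPM) and 68 in saline (36.0 CPM). One saline cell gave 20.6% of the saline UMIs of H2-DMb2. Of the 50-base windows of the H2-DMb2 transcript, 25.2% also occur in H2-DMb1, but 2.60% (13 of 500) of those at the 3′ end, where this assay reads. Genes on the opposite strand overlap H2-DMa, H2-Eb1 and Ciita, and the labels do not state whether the counting used strand.

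Ciita, the transactivator, was seen in few cells. It had 50 UMIs in PCL (4.54 CPM), 98 in UBM (6.72 CPM) and 42 in saline (22.2 CPM), 4.90-fold lower in PCL (3.17 to 7.53) and 3.31-fold lower in UBM (2.25 to 4.80) than in saline. Ciita was above 0 in 2.68% of PCL cells, 3.64% of UBM cells and 10.9% of saline cells. Over all cells, and unlike the chains, it was lower in PCL than in UBM, at 0.676 (0.471 to 0.960). The largest part of the UBM Ciita UMIs was in R1, which holds 12.7% of UBM cells but 0.799% of PCL cells. Within FP1 the ratio was 0.973 (0.130 to 43.2), from 8 and 1 UMIs. It was not run without R1, so its direction there is not known.

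The costimulators set the scaffolds apart more than any class II gene. Cd86 was at 97.8 CPM in PCL and 24.8 CPM in UBM, against 140 CPM in saline. It was 1.44-fold lower in PCL than in saline (1.25 to 1.64) and 5.65-fold lower in UBM than in saline (4.81 to 6.64). Cd80 was at 25.1 CPM in PCL and 4.80 CPM in UBM, against 14.3 CPM in saline, from 276, 70 and 27 UMIs. It was the only member above saline in either scaffold, at 1.75 in PCL over saline (1.18 to 2.71), while UBM was 2.98-fold lower than saline (1.84 to 4.71). PCL over UBM was 3.94 for Cd86 (3.49 to 4.45) and 5.23 for Cd80 (4.01 to 6.89), the 2 highest ratios of the 10 members.

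**Figure D1:**
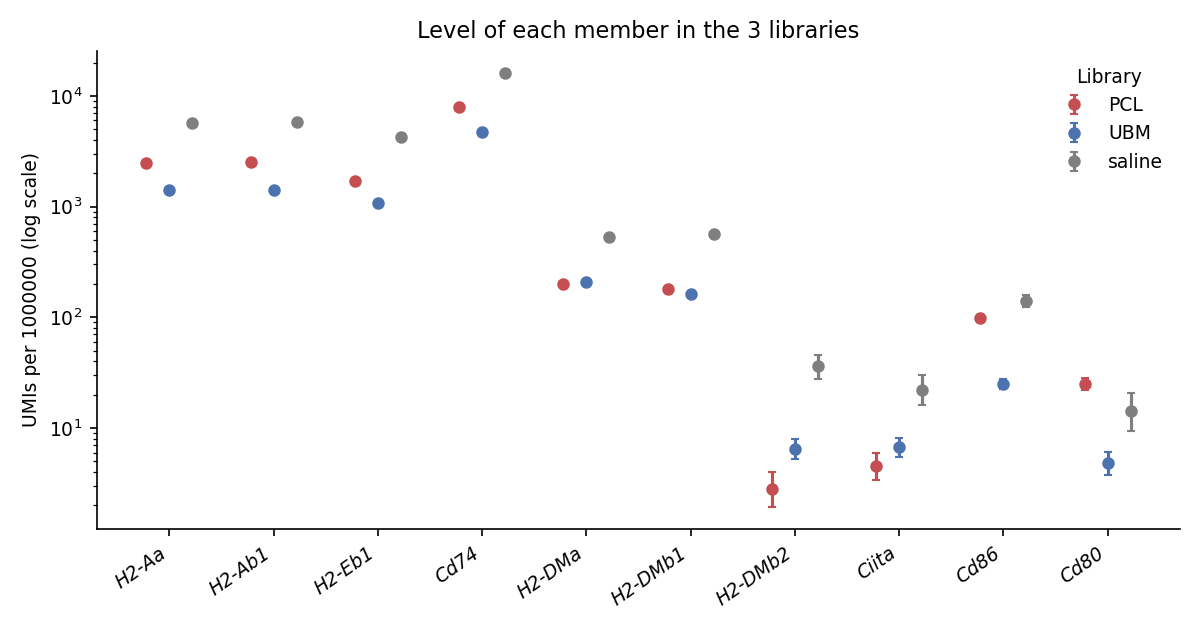
Level of each of the 10 members in the PCL, UBM and saline libraries, in UMIs per 1000000 on a log axis; points are the level over all cells of 1 library and bars the 95% counting interval. The chains and Cd74 run saline, PCL, UBM from the top, H2-DMa and H2-DMb1 have PCL and UBM side by side, and Cd80 is highest in PCL at 25.1.

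At least 2-fold lower after adding 10 CPM to each level were 8 of the 10 members in PCL against saline, beside 2.19% of all 7389 genes with 10 CPM or more in either library, and 0 were 2-fold higher, beside 2.3% of all genes. The median log2 ratio was −1.20 over the members and 0.04 over all genes. In UBM against saline 8 of 10 members were lower, beside 3.52% of 7296 genes, and 0 higher, beside 2.01%, with a median of −1.75 over the members and −0.07 over all genes. PCL against UBM had 8 of the 10 members above the 10 CPM minimum, since H2-DMb2 and Ciita were under it in both libraries. Of these 8, the costimulators Cd86 and Cd80 were at least 2-fold higher in PCL, beside 3.28% of 7200 genes, and 0 were lower, beside 1.61%. The comparisons with saline share the saline library.

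Cells were divided by their class II level. To compare cells at 1 depth, 2500 UMIs were drawn from each. Below that depth were 154 PCL, 162 UBM and 79 saline cells, which were not used. A cell was called class II high at 10 or more UMIs of H2-Aa, H2-Ab1 and H2-Eb1 summed, low at 2 or fewer, and between at 3 to 9. The high share was 38.5% in PCL (615 of 1599 cells, 36.1 to 40.9%), 19.97% in UBM (423 of 2118, 18.3 to 21.7%) and 65.6% in saline (172 of 262, 59.6 to 71.4%). Low cells made up 38.1% of PCL, 72.2% of UBM and 24.4% of saline cells, and cells between made up 23.5% of PCL, 7.84% of UBM and 9.92% of saline cells. Without thinning, at 40 UMIs per 10000, the high shares were 36.2% in PCL, 18.4% in UBM and 62.2% in saline. The median cell had 4 chain UMIs in PCL, 0 in UBM and 32 in saline, while the median high cell had 35 in PCL, 35 in UBM and 53 in saline. The share of high cells differed between PCL and UBM, while the median high cell had 35 chain UMIs in both. The chains had set the class, so that median cannot fall below the limit and is a description. The 10 UMI limit is a range on a continuous measure, and 118 PCL, 96 UBM and 11 saline cells lay within 3 UMIs of it (7 to 12).

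**Figure D2:**
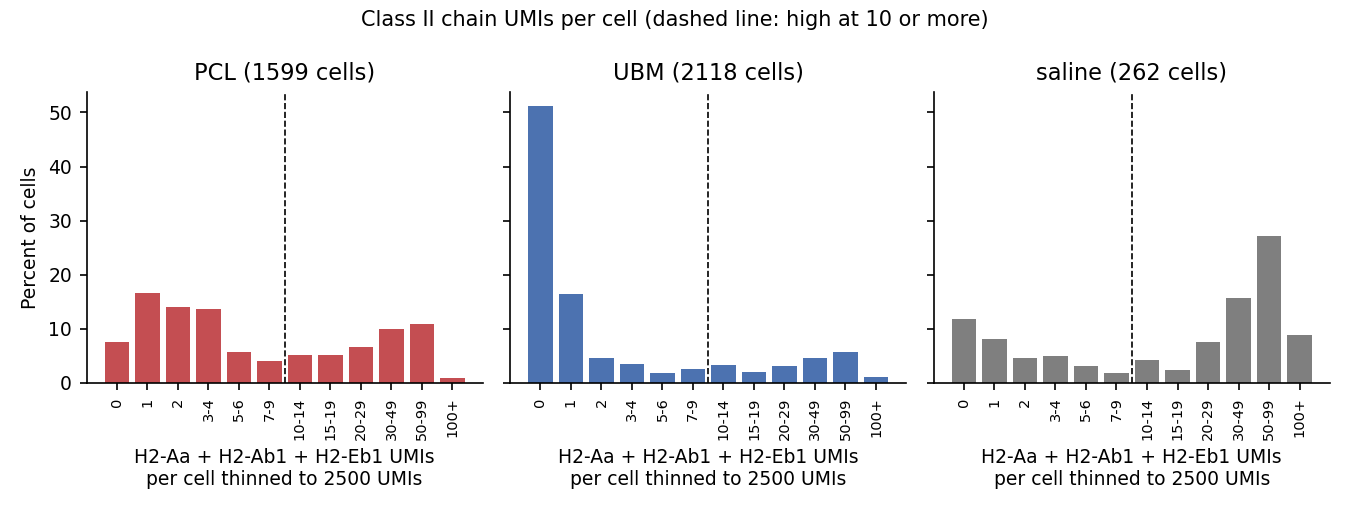
Percent of cells of each library by the summed UMIs of H2-Aa, H2-Ab1 and H2-Eb1, after each cell was thinned to 2500 UMIs; bins are of unequal width and the dashed line is the limit of 10. The bin at 0 UMIs holds 7.505% of PCL, 51.2% of UBM and 11.8% of saline cells, and the bin of 50 to 99 holds 10.9% of PCL, 5.62% of UBM and 27.1% of saline cells; wider bins hold more cells, so bar heights are not densities.

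The low cells of PCL were not like those of UBM. Cells without any chain UMI were 7.505% of thinned PCL cells, 51.2% of UBM cells and 11.8% of saline cells. In low cells the 3 chains summed to 468 CPM in PCL, 141 CPM in UBM and 281 CPM in saline. In PCL low cells there were 244 UMIs of H2-Aa, 279 of H2-Ab1 and 190 of H2-Eb1, and in UBM low cells 147, 285 and 108. H2-Ab1 therefore outnumbered H2-Aa in UBM low cells, though the 2 were nearly equal in UBM high cells, at 6500 and 6513 UMIs. Free RNA can give such UMIs. No cluster served as one that lacks class II: RP1, with the lowest level, had a UMI of H2-Aa in 78.4% of its 37 PCL cells (median 4612 UMIs per cell) and 17.1% of its 574 UBM cells (median 4249.5), and the neutrophil-marked F2 had one in 75.6% of its 45 PCL cells (median 4373). The part of free RNA in the low cells was not tested.

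The share of high cells differed strongly between the authors' 9 clusters, which are called by the authors' names since the meaning of the letters is not given. The clusters were made from all genes, these included, so differences between clusters are a description. Over all libraries, F1 had 80.5% high cells (418 of 519), R1 70.3% (232 of 330), R3 56.4% (123 of 218), F2 39.5% (17 of 43), RP3 24.1% (74 of 307), FP1 23.2% (254 of 1094), R2 17.1% (42 of 246), RP2 5.64% (39 of 692) and RP1 2.08% (11 of 530). This order is over pooled cells, to which the libraries gave different numbers, and the point values within libraries had another order. Within each library the intervals of R1 and F1 overlapped, as did those of FP1 and RP3. R1 had a higher high share than F1 in PCL (92.3 and 82.1%), in UBM (65.1 and 59.5%) and in saline (100 and 85.4%), and FP1 had a higher one than RP3 in PCL (21.7 and 16.9%) and in saline (55.9 and 30.6%) but not in UBM (18.0 and 25.7%). Low cells made up 9.83% of F1, 18.5% of R1, 51.3% of FP1, 55.4% of RP3 and 91.7% of RP1 over all libraries. In that order the intervals of the neighbours R3 and F2 overlapped, as did those of F2, RP3 and FP1, and of FP1 and R2. Over pooled libraries the T and NK cell markers summed to 190 CPM in R1. The dendritic cell markers summed to 2813 CPM in R1 and 755 CPM in RP3 in PCL, 601 and 1085 CPM in UBM, and 1290 and 1080 CPM in saline. Over pooled libraries the macrophage markers summed to 41114 CPM and the muscle fibre markers to 1011 CPM in R3.

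The libraries also differed within clusters. In F1 the high share was 82.1% in PCL (352 of 429, 78.1 to 85.6%), 59.5% in UBM (25 of 42, 43.3 to 74.4%) and 85.4% in saline (41 of 48, 72.2 to 93.9%). In FP1 it was 21.7% in PCL (205 of 946, 19.1 to 24.4%), 18.0% in UBM (16 of 89, 10.6 to 27.6%) and 55.9% in saline (33 of 59, 42.4 to 68.8%). PCL and UBM cells of FP1 overlapped in their intervals, and saline stood above both. In R1 all 39 saline cells were high (91.0 to 100%), beside 92.3% in PCL (12 of 13, 64.0 to 99.8%) and 65.1% in UBM (181 of 278, 59.2 to 70.7%). In R3 the share was 75% in PCL (12 of 16, 47.6 to 92.7%), 51.2% in UBM (87 of 170, 43.4 to 58.9%) and 75% in saline (24 of 32, 56.6 to 88.5%).

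In RP2, which was 28.1% of UBM cells, the high share was 9.62% in PCL (5 of 52, 3.20 to 21.03%), 2.95% in UBM (18 of 611, 1.76 to 4.62%) and 55.2% in saline (16 of 29, 35.7 to 73.6%). In RP3 it was 16.9% in PCL (14 of 83, 9.54 to 26.7%), 25.7% in UBM (45 of 175, 19.4 to 32.8%) and 30.6% in saline (15 of 49, 18.2 to 45.4%), and the intervals of all 3 overlapped. In RP1 it was 3.70% in PCL (1 of 27, 0.09 to 19.0%) and 1.80% in UBM (9 of 500, 0.83 to 3.39%), and 3 saline cells of RP1 had enough UMIs, 1 of them high. R2 held UBM cells only and was 17.1% high (12.6 to 22.4%). F2 was 42.4% high in PCL (14 of 33, 25.5 to 60.8%), with 0 of 7 UBM cells (up to 42.9% allowed) and 3 of 3 saline cells.

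**Figure D3:**
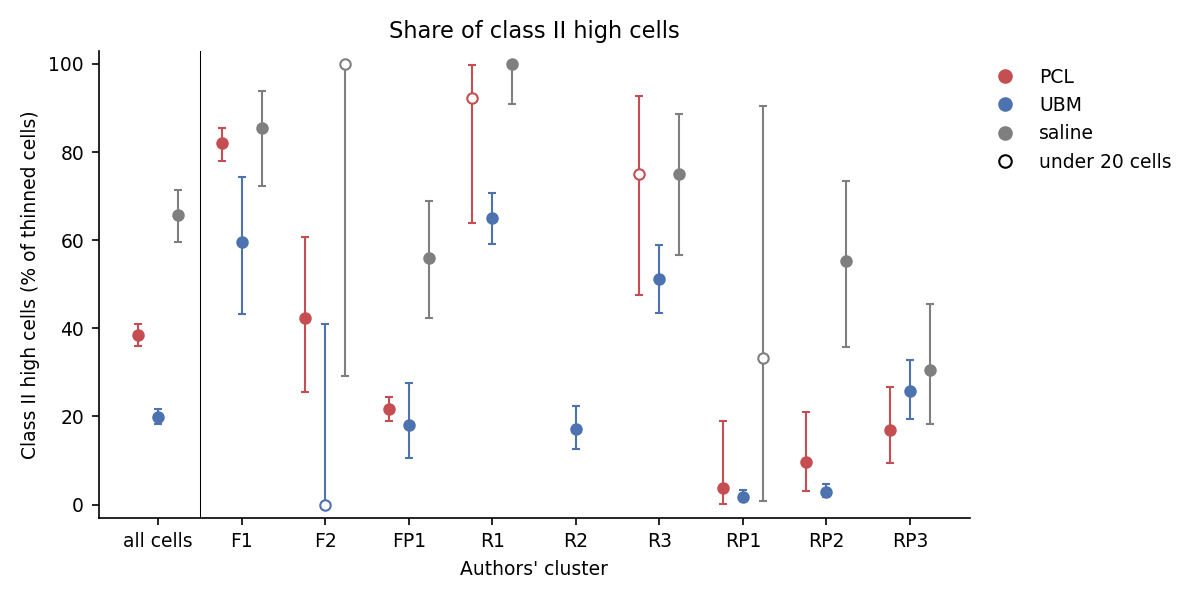
Share of class II high cells among cells thinned to 2500 UMIs, over all cells and in each of the authors' clusters, for PCL, UBM and saline; bars are exact 95% binomial intervals and open points rest on under 20 cells. Saline stands above both scaffolds in FP1 (55.9%) and RP2 (55.2%), while the 3 libraries overlap in RP3.

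The low shares also differed within clusters. In FP1 they were 50.2% in PCL, 75.3% in UBM and 32.2% in saline, and in RP2 59.6% in PCL, 92.5% in UBM and 31.0% in saline. PCL differed by its cells between the limits, which made up 28.1% of FP1 in PCL, 6.74% in UBM and 11.9% in saline, and 37.3% of RP3 in PCL, 13.7% in UBM and 16.3% in saline. In F1 the low share was 7.69% in PCL, 28.6% in UBM and 12.5% in saline, in R1 0 of 13 PCL cells, 21.9% in UBM and 0 of 39 saline cells, and in R3 25% in PCL, 37.6% in UBM and 9.38% in saline. In RP3 it was 45.8% in PCL, 60.6% in UBM and 53.1% in saline, in RP1 55.6% in PCL and 94.0% in UBM, and in R2 71.95% in UBM.

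The high cells of each library came from different clusters. In PCL, 57.2% of the 615 high cells were in F1 and 33.3% in FP1. In UBM, 42.8% of the 423 high cells were in R1, 20.6% in R3, 10.6% in RP3, 9.93% in R2 and 5.91% in F1. In saline, 23.8% of the 172 high cells were in F1, 22.7% in R1, 19.2% in FP1, 14.0% in R3 and 9.30% in RP2. FP1, which was 59.1% of PCL cells, thus gave a smaller part of the high cells than F1, which was 26.0% of PCL cells.

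Both the cluster makeup and the level within clusters entered the differences in high share, as arithmetic. Over the 4 clusters with at least 20 thinned cells in both libraries (F1, FP1, RP2 and RP3), PCL had 38.1% high cells as found and 34.2% with the cluster makeup of saline (31.4 to 37.0%), against 56.8% in saline. Over these 4 clusters the PCL share was therefore no nearer to saline at saline's makeup. They leave out R1 and R3, which held 22.7 and 14.0% of the saline high cells. The value thus does not bear on the 65.6% over all saline cells. Over 6 such clusters UBM had 27.3% high cells as found and 36.9% with the makeup of saline (33.1 to 40.7%), against 65.6% in saline. Over 5 clusters (F1, FP1, RP1, RP2 and RP3) PCL had 37.5% high cells as found and 11.3% with the makeup of UBM (6.94 to 15.7%), against 7.97% in UBM, whose share lies inside that interval. These 5 leave out R1, R3 and R2, which held 42.8, 20.6 and 9.93% of the UBM high cells, so the value does not bear on the 19.97% over all UBM cells.

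The summed level also differed between libraries within clusters. In FP1 the 4 summed genes were at 6278 CPM in PCL and 3883 CPM in UBM, against 17499 CPM in saline, which is 2.79-fold lower in PCL (2.72 to 2.85) and 4.51-fold lower in UBM (4.32 to 4.70) than in saline. In FP1, 7 of 9 members above the minimum were at least 2-fold lower in PCL than in saline, beside 1.6% of all genes, and 7 of 9 in UBM than in saline, beside 4.01%. None was 2-fold higher in FP1, beside 2.69% of all genes in PCL over saline and 3.33% in UBM over saline. In F1 the sum was at 36443 CPM in PCL and 47568 CPM in saline, 1.31-fold lower in PCL (1.28 to 1.33). In F1, 1 of 9 members was 2-fold lower, beside 2.67% of all genes: H2-DMb1, at 423 CPM in PCL against 880 CPM in saline, and 0 were higher, beside 4.44%. The 43 UBM cells of F1 had 23844 CPM of the sum.

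PCL and UBM changed places in RP3 by the summed level, but not by the median cell. The median thinned RP3 cell had 3 chain UMIs in PCL and 1 in UBM, and 9.64% of PCL and 40% of UBM cells had none. The summed level there was 4967 CPM in PCL and 10564 CPM in UBM, against 12643 CPM in saline, and PCL over UBM was 0.470 (0.451 to 0.490). In FP1 PCL over UBM was 1.62 (1.56 to 1.68) and in RP2 it was 1.88 (1.76 to 2.001), from 3375 CPM in PCL and 1796 CPM in UBM. In RP3, 4 of 8 members were at least 2-fold lower in PCL than in UBM, beside 1.15% of all genes, and 0 were higher, beside 3.85%. Also in RP3, 7 of 9 members were lower in PCL than in saline, beside 4.14%, and 1 of 9, Cd86, was lower in UBM than in saline, beside 6.12%. None was higher than in saline in RP3, beside 6.47% of all genes in PCL and 4.12% in UBM. Of the 8 members compared between PCL and UBM in RP3, Cd86 alone was higher in PCL, at 107 CPM in PCL and 58.7 CPM in UBM, against 171 CPM in saline. In FP1 and in RP2, 2 of 8 members were at least 2-fold higher in PCL than in UBM, beside 3.19% of all genes in FP1 and 2.94% in RP2, and 0 were lower, beside 2.41% in FP1 and 2.65% in RP2. The dendritic cell markers of RP3 summed to 755 CPM in PCL, 1085 CPM in UBM and 1080 CPM in saline, and their part in the RP3 values was not tested.

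The share of each chain among the chain UMIs varied as follows. Over the 24 groups of cluster and library with at least 100 chain UMIs, H2-Aa gave 31.5 to 42.3% of the chain UMIs, H2-Ab1 31.5 to 41.3% and H2-Eb1 21.6 to 32.8%. Cd74 had 0.844 UMIs per chain UMI in the PCL cells of RP1 and 1.71 in the UBM cells of RP2, the ends of the range. Over all cells it was 1.18 in PCL, 1.20 in UBM and 1.02 in saline. Over thinned cells, Pearson's r between H2-Aa and H2-Ab1 was 0.87 in PCL (1599 cells), 0.92 in UBM (2118 cells) and 0.94 in saline (262 cells). Between H2-Aa and H2-DMb1 it was 0.47 in PCL, 0.63 in UBM and 0.60 in saline, between H2-Aa and Cd86 0.20 in PCL, 0.12 in UBM and 0.08 in saline, and between H2-Aa and Cd80 0.03 in PCL, 0.04 in UBM and −0.02 in saline. These describe cells of 1 library each, and sparse genes such as Cd80 cannot give a high r.

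Set against the chains over the 20 groups of cluster and library with at least 20 cells, the members differed in how closely they followed them. Pearson's r of log2 of CPM with 10 added, against the 3 chains summed, was 0.96 for H2-DMa, 0.96 for H2-DMb1, 0.89 for Ciita, 0.72 for Cd86, 0.55 for H2-DMb2 and 0.36 for Cd80. Cd80 lay between 2.83 CPM and 29.2 CPM, and in FP1 it was 25.9 CPM in PCL (169 UMIs) and 6.30 CPM in UBM (5 UMIs), against 16.4 CPM in saline (8 UMIs). There PCL over UBM was 4.11 (1.73 to 12.8) and PCL over saline 1.58 (0.785 to 3.72), while the 3 chains summed to 2732 CPM in PCL and 1718 CPM in UBM, against 8425 CPM in saline. In RP3 the order of the scaffolds was the other way, with Cd80 at 3.45 CPM in PCL (2 UMIs) and 12.4 CPM in UBM (12 UMIs), against 11.2 CPM in saline (3 UMIs).

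**Figure D4:**
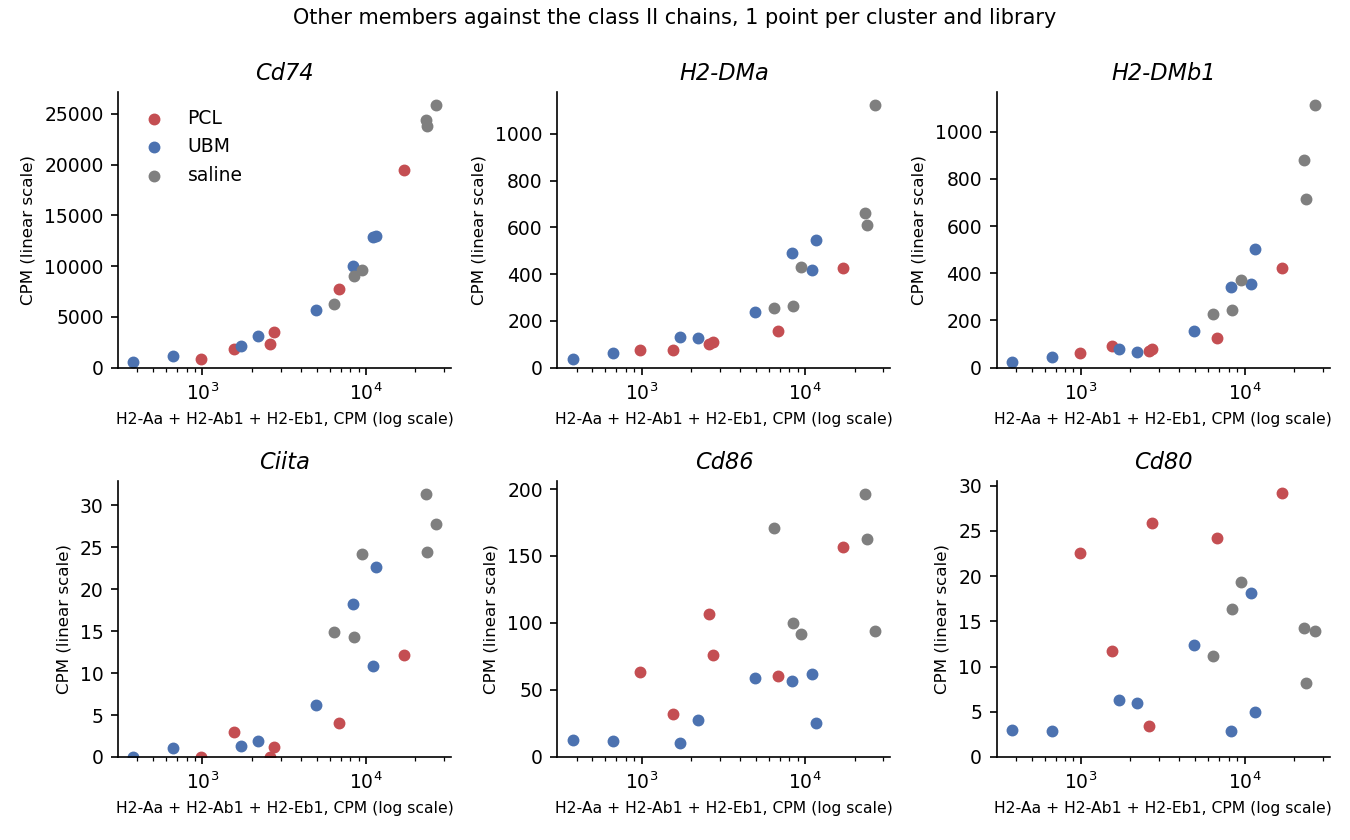
Level of Cd74, H2-DMa, H2-DMb1, Ciita, Cd86 and Cd80 (CPM, linear axis) against the summed level of H2-Aa, H2-Ab1 and H2-Eb1 (CPM, log axis), with 1 point for each cluster and library of at least 20 cells, coloured by library. Cd74, H2-DMa and H2-DMb1 climb with the chains in every library, while Cd80 is spread from 2.83 to 29.2 CPM with little relation to them.

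Among 2473 other genes with enough UMIs, those most like the chains over the same 20 groups were Plbd1 (r = 0.90), Cyp4f18 (0.89), Tmem176b (0.88), Tmem176a (0.88), Ptpn1 (0.85), Axl (0.82), Pld4 (0.81), Clec4b1 (0.81), Hcls1 (0.81) and Crlf3 (0.80). Plbd1, a phospholipase B-like gene, ran between 5.15 CPM and 316 CPM over the groups. The 5 least alike were Osbpl8 (−0.86), Arl8a (−0.85), the chemokine gene Pf4 (−0.84), the acute-phase gene Saa3 (−0.83) and the hypoxia-induced Bnip3 (−0.78). The points share libraries and clusters, so these are descriptions.

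In UBM and saline H2-DMb2 lay mostly in R1. Of its UMIs, 4 of 31 in PCL, 79 of 95 in UBM and 60 of 68 in saline were in R1 cells. It was seen in 14.3% of PCL R1 cells, 16.3% of UBM R1 cells (47 of 289) and 37.0% of saline R1 cells (17 of 46), and in 0 of 254 R2 cells, which allows up to 1.39 CPM. Its level in R1 was 36.5 CPM in PCL (4 UMIs), 32.6 CPM in UBM (25.8 to 40.6) and 208 CPM in saline (159 to 268). H2-DMb1 was seen in 73.4% of UBM R1 cells and in 72.1% of UBM F1 cells. The dendritic cell markers of R1 summed to 2813 CPM in its 14 PCL cells, 601 CPM in UBM and 1290 CPM in saline.

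Ciita also differed between clusters. It was at 12.2 CPM in PCL F1 (35 UMIs), 10.9 CPM in UBM F1 (3 UMIs) and 31.3 CPM in saline F1 (11 UMIs). In R1 it was at 18.3 CPM in PCL (2 UMIs), 22.7 CPM in UBM (55 UMIs) and 27.8 CPM in saline (8 UMIs). In FP1 it was at 1.23 CPM in PCL (8 UMIs), 1.26 CPM in UBM (1 UMI) and 14.3 CPM in saline (7 UMIs). RP1 had 0 Ciita UMIs in all 624 cells, which allows up to 1.03 CPM.

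High and low cells were then compared within each library for the members that did not set the classes. H2-DMa was at 387 CPM in high and 70.9 CPM in low cells of PCL, 669 CPM and 54.2 CPM in UBM, and 702 CPM and 131 CPM in saline. That is 5.46-fold in PCL (4.44 to 6.76), 12.3-fold in UBM (10.6 to 14.5) and 5.35-fold in saline (3.44 to 8.77). H2-DMb1 was 7.13-fold higher in high cells in PCL (5.62 to 9.16), 18.6-fold in UBM (15.2 to 23.0) and 12.7-fold in saline (6.82 to 26.7). Ciita had 15 UMIs in high and 1 in low cells of PCL, 31 and 2 in UBM, and 17 and 0 in saline. Over all genes, 1.05% in PCL, 1.68% in UBM and 6.94% in saline were at least 2-fold higher in high cells, and 0.957% in PCL, 1.16% in UBM and 8.62% in saline were lower. H2-DMa and H2-DMb1 were among those higher in every library.

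The costimulators were split between the classes far less. Cd86 was 2.24-fold higher in high than in low cells of PCL (1.77 to 2.84), 2.62-fold in UBM (1.81 to 3.79) and 1.54-fold in saline (0.865 to 2.91). Cd80 was at 1.10-fold in PCL (0.719 to 1.70), 2.32-fold in UBM (0.887 to 5.76) and 0.620-fold in saline (0.204 to 2.08), so no interval excluded 1. A UMI of Cd86 was seen in 29.9% of high and 15.9% of low cells of PCL, in 10.9% and 4.45% of UBM, and in 27.9% and 23.4% of saline. Both costimulators were seen together in 16 of 615 high cells and 10 of 609 low cells of PCL, in 3 of 423 high and 0 of 1529 low cells of UBM, and in 1 of 172 high and 0 of 64 low cells of saline. Neither was seen in 65.0% of high cells of PCL, 87.7% of UBM and 66.9% of saline, at 2500 UMIs per cell.

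The libraries were then compared among high cells alone. The intervals of PCL over UBM held 1 for H2-Aa (6068 and 6159 CPM, PCL over UBM 0.985, 0.954 to 1.02), H2-Ab1 (0.974, 0.943 to 1.01) and Cd74 (18734 and 18550 CPM, 1.01, 0.992 to 1.03), while H2-Eb1 was at 0.866 (0.834 to 0.899). The chains had set the class, so these levels are a description. H2-DMa was at 387 CPM in PCL and 669 CPM in UBM high cells (0.579, 0.518 to 0.646), H2-DMb1 at 366 and 550 CPM (0.664, 0.590 to 0.747) and Ciita at 9.76 and 29.3 CPM (15 and 31 UMIs, 0.333, 0.167 to 0.635). H2-DMb2 had 3 UMIs in PCL and 30 in UBM high cells. Cd86 ran the other way, at 154 CPM in PCL and 50.1 CPM in UBM (3.08, 2.28 to 4.23), and so did Cd80, at 31.9 and 8.51 CPM (3.74, 1.82 to 8.67). Within high cells, the intervals of PCL over UBM therefore held 1 for Cd74 and the I-A chains. They lay under 1 for the H2-DM genes and Ciita, and above 1 for Cd86 and Cd80. The high cells came from different clusters, 57.2% from F1 and 33.3% from FP1 in PCL, but 42.8% from R1 and 20.6% from R3 in UBM. The part of cluster makeup in these ratios was not tested.

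Against saline, high cells of both scaffolds had less of the chains, at 0.672 in PCL (0.657 to 0.688) and 0.709 in UBM (0.692 to 0.726) for the 3 summed. Cd86 in high cells was at 154 CPM in PCL and 50.1 CPM in UBM, against 144 CPM in saline, so PCL over saline was 1.07 (0.805 to 1.44) and UBM over saline 0.348 (0.236 to 0.510). At least 2-fold lower among high cells were 3 of 10 members in PCL against saline, beside 3% of all genes, and 1 of 10 in UBM against saline, beside 3.56%. None was higher than in saline, beside 3.85% of all genes in PCL and 2.56% in UBM. In PCL against UBM 1 of 10 was lower, beside 1.95%, and 2 higher, beside 3.81%. In low cells, too, Cd86 was higher in PCL than in UBM (69.0 and 19.1 CPM, 3.61, 2.65 to 4.94), as was Cd80 (28.9 and 3.66 CPM, 7.89, 4.24 to 15.6).

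**Figure D5:**
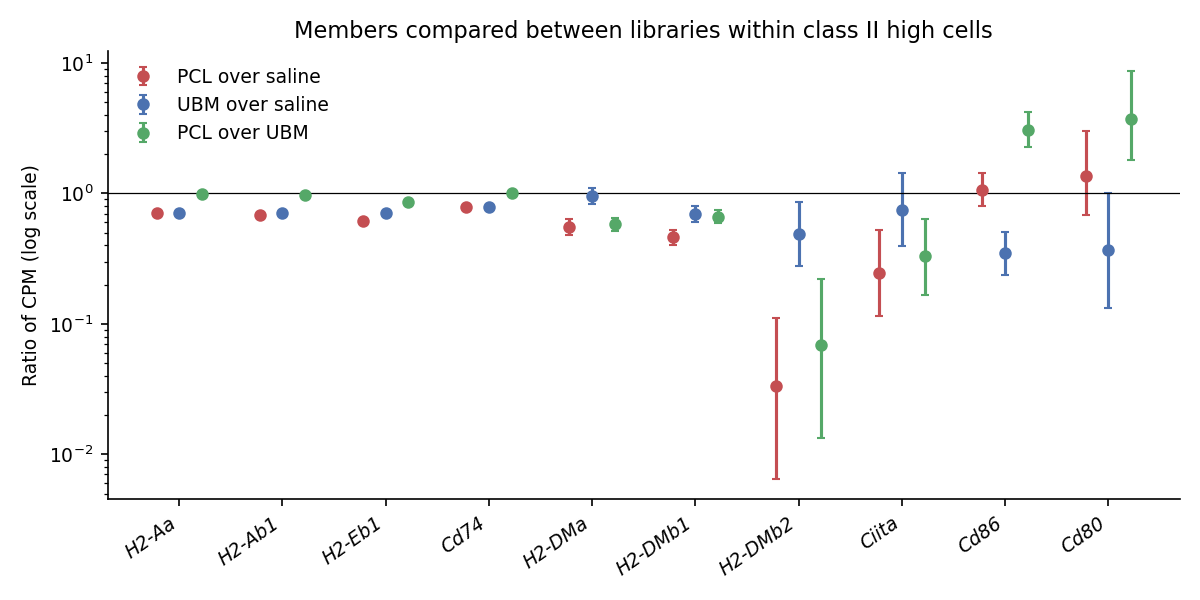
Ratio of CPM between libraries within class II high cells for the 10 members, on a log axis, for PCL over saline, UBM over saline and PCL over UBM; bars are 95% counting intervals and the line marks a ratio of 1. PCL over UBM is near 1 for the chains and Cd74, under 1 for the H2-DM genes and Ciita, and above 1 for Cd86 (3.08) and Cd80 (3.74). The high cells of the libraries come from different clusters.

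High cells were also compared with low cells in other genes, picked for a ratio in the same direction in all 3 libraries. Of 2215 genes with enough UMIs, the 10 with the highest smallest log2 ratio over the libraries were Clec4b1, Plbd1, Ccr2, Tmem176a, Ly6a, Pld4, Cytip, Tnip3, Bcl2a1d and Naaa. Ccr2, the receptor that draws monocytes into tissue, was at 553 CPM in high and 145 CPM in low cells of PCL, 323 and 20.1 CPM in UBM, and 540 and 68.8 CPM in saline. The lectin gene Clec4b1 was at 102 and 7.88 CPM in PCL, 174 and 11.0 CPM in UBM, and 200 and 12.5 CPM in saline. The 10 lowest were Spp1, Gpnmb, Ctsl, Saa3, Arg1, Rnf128, Folr2, Mgst1, Hist1h2bc and Pf4. Spp1 (osteopontin) was at 2942 CPM in high and 9442 CPM in low cells of PCL, 379 and 1904 CPM in UBM, and 319 and 831 CPM in saline. Arg1 (arginase) was at 356 and 1903 CPM in PCL, 1576 and 3681 CPM in UBM, and 23.3 and 62.5 CPM in saline. These genes were picked for their ratio, so the values are a description. The summed macrophage markers were at 23314 CPM in high and 22200 CPM in low cells of PCL and at 21309 and 14450 CPM in UBM, with 31444 and 33569 CPM in saline, and the dendritic cell markers at 236 and 210 CPM in PCL, 651 and 325 CPM in UBM, and 714 and 463 CPM in saline. The monocyte markers include Ccr2. They summed to 3752 and 3674 CPM in PCL, 2470 and 2145 CPM in UBM, and 1809 and 1538 CPM in saline. At least 2-fold higher in high cells were 4 of 9 in PCL, 3 of 8 in UBM and 1 of 8 in saline. Lower were 1 of 9, 0 of 8 and 1 of 8, in that order, among genes above the minimum. Of all genes, 1.05%, 1.68% and 6.94% were higher, and 0.957%, 1.16% and 8.62% lower. The neutrophil markers were at 974 CPM in high and 2694 CPM in low cells of PCL and at 44.4 and 97.3 CPM in UBM, but at 702 and 50 CPM in saline. The muscle fibre markers were at 46.8 and 42.7 CPM in PCL, 130 and 20.7 CPM in UBM, and 619 and 444 CPM in saline. The genes that turn over or suppress class II had a median log2 ratio of 0.29 in PCL, 0.19 in UBM and −0.68 in saline. The part of these cells in the differences between high and low cells was not tested.

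The genes around the class II pathway did not move as 1 block. Of the proteases and other genes that process the invariant chain and antigens, 7 of 7 were measured. Of these 1, Ctsl, was at least 2-fold higher in PCL and in UBM than in saline, beside 2.3% of all genes in PCL and 2.01% in UBM. Ctsl (cathepsin L) was at 2408 CPM in PCL and 3156 CPM in UBM, against 762 CPM in saline. Ctss (cathepsin S), the main protease for the invariant chain in antigen-presenting cells, was at 3207 CPM in PCL and 3680 CPM in UBM, against 3351 CPM in saline. Of the class II transcription genes, 1 of 13 above the minimum, Irf1, was 2-fold lower in PCL than in saline, beside 2.19% of all genes. In UBM 2 of 13 were 2-fold lower than in saline, Irf1 among them, beside 3.52%. None was 2-fold higher than in saline, beside 2.3% of all genes in PCL and 2.01% in UBM. Irf1, which drives an interferon-induced promoter of Ciita, was at 19.4 CPM in PCL and 26.9 CPM in UBM, against 94.8 CPM in saline. Between PCL and UBM 0 of 12 were 2-fold lower, beside 1.61% of all genes, or higher, beside 3.28%. Jak2, a kinase of the interferon receptor, was at 22.3 CPM in PCL and 41.2 CPM in UBM, against 25.9 CPM in saline, and Ifngr1, a chain of that receptor, at 221 CPM in PCL and 153 CPM in UBM, against 277 CPM in saline.

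Of the genes that turn over or suppress class II, 0 of 10 above the minimum in PCL and 1 of 11 in UBM, Tgfbr1, were at least 2-fold lower than in saline, beside 2.19% of all genes in PCL and 3.52% in UBM. None was higher, beside 2.3% in PCL and 2.01% in UBM. Their median log2 ratio was −0.51 in PCL over saline, −0.48 in UBM over saline and 0.02 in PCL over UBM. Tgfbr1 was at 35.1 CPM in PCL and 28.3 CPM in UBM, against 69.4 CPM in saline, and Socs3, an inhibitor of cytokine signals, at 140 CPM in PCL and 139 CPM in UBM, against 264 CPM in saline. March1, the ubiquitin ligase that removes class II and CD86 from the surface, was at 27.6 CPM in PCL and 23.9 CPM in UBM, against 46.1 CPM in saline. Of the other costimulators and inhibitory ligands, 2 of 9 above the minimum were 2-fold lower in PCL than in saline, beside 2.19% of all genes. In UBM 3 of 10 were lower than in saline, beside 3.52%, and 2 higher, beside 2.01%. Cd83, which stabilises class II and CD86, was at 140 CPM in PCL and 107 CPM in UBM, against 431 CPM in saline, and Tnfsf9, the ligand of 4-1BB, at 17.0 CPM in PCL and 23.9 CPM in UBM, against 58.3 CPM in saline. The 2 higher were the ligands of PD-1: Cd274 (PD-L1), at 28.3 CPM in PCL and 57.0 CPM in UBM, against 21.7 CPM in saline, and Pdcd1lg2 (PD-L2), at 2.82 CPM in PCL and 37.3 CPM in UBM, against 2.12 CPM in saline. PCL over UBM was 0.0755 for Pdcd1lg2 (0.0508 to 0.108), opposite in direction to Cd86 and Cd80. Of the other genes of the class II region H2-Oa, H2-Ob and H2-Eb2 were measured, and none reached 10 CPM in any library.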

How the data were processed

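The authors deposited a table of UMI counts, whole numbers per gene and cell, and a table of each cell's condition and cluster. Per the submitters' design text, reads were counted with Cell Ranger and clustered in Seurat. Per the submitters' processing notes Seurat was version 2. These notes list the human build hg38, but 12831 of the symbols (96.9%) matched a mouse annotation on GRCm38, which gave the positions. The labels state no cell filter and no removal of doublets. The condition names ECM, Synthetic and PBS in the cell table were read as UBM, PCL and saline. There were 6 cell barcodes in more than 1 library.

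From the deposited counts, UMIs were summed over cells and divided by their total to give CPM. Intervals were exact Poisson for levels, exact conditional binomial for ratios and Clopper-Pearson for shares, all covering counting error only. The ratio intervals were run on simulated Poisson counts. These follow the counting model of the intervals and hold no spread between cells, so they check the arithmetic only. Shares used cells thinned to 2500 UMIs. Counts of genes used a minimum of 10 CPM in either library and a 2-fold rule after adding 10 CPM, which is no test. Comparisons within clusters needed 50 cells in both libraries. No doublet caller was run. Tools were Python 3.11.15, numpy 2.4.6, scipy 1.17.1, pandas 2.3.3 and, for trimmed mean scaling, edgeR 4.0.16 in R 4.3.3. Besides the members, named genes were the 2 highest and 2 lowest of each pathway list per pair of libraries, the 10 most and 5 least like the chains, and the 10 highest and 10 lowest in high against low cells; March1 was named after its values were seen. The members and lists were chosen with earlier results of these data known. One gene that this rule names is not reported here.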

Additional observations from a re-analysis of the deposited data

Results flagged for a closer look

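The summed level of H2-Aa, H2-Ab1, H2-Eb1 and Cd74 in PCL over UBM went in opposite directions in different clusters. It was 1.62 within FP1 (1036 PCL and 99 UBM cells) and 1.88 within RP2 (58 PCL and 640 UBM cells), but 0.47 within RP3 (92 PCL and 200 UBM cells). The median thinned cell of RP3 was not lower in PCL, with 3 chain UMIs in PCL and 1 in UBM. With 1 library per condition the difference between the clusters was not tested. RP3 held 755 CPM of dendritic cell markers in PCL and 1085 CPM in UBM, and the median cell of RP3 had 5580 UMIs in PCL and 4193.5 in UBM; the part of these in the difference was not tested.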

How the results depend on the processing

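With 1 library per condition nothing could be left out as a replicate, and no paired analysis was possible because each condition has 1 library. The summed level of the chains and Cd74 was 0.458 in PCL over saline, 0.270 in UBM over saline and 1.70 in PCL over UBM. In that order it was 0.466, 0.297 and 1.57 scaled by the trimmed mean of M values, 0.464, 0.294 and 1.58 by the median of ratios, and 0.441, 0.283 and 1.56 with Malat1 and the ribosomal protein genes taken out of the total. It was 0.476, 0.25 and 1.90 with each cell counted alike, 0.493, 0.259 and 1.90 without clusters F2 and R3, 0.511, 0.193 and 2.65 without R1, and 0.424, 0.247 and 1.72 without Cd74. With equal weight for FP1 and RP3 it was 0.373, 0.479 and 0.778, so PCL over UBM reversed, in the direction of RP3. Without cells over 10% mitochondrial UMIs it was 0.452 and 0.267 against saline, and without the 1 cell richest in these genes 0.464 and 0.273. Without the 5% of cells with most UMIs, chosen after seeing the data, it was 0.248 in UBM over saline and 1.85 in PCL over UBM. Trimmed mean scaling moved the median of all genes by 0.11 (log2) in UBM over saline.

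The high share was 48.3% in PCL and 24.3% in UBM at a limit of 5 UMIs, and 28.2% in PCL, 14.6% in UBM and 59.2% in saline at 20. With Cd74 added it was 49.8% in PCL, 26.8% in UBM and 74.0% in saline. In UBM it was 23.8% at 5000 UMIs per cell and 17.3% without F2 and R3. Saline stayed highest and UBM lowest under each of these. At saline's makeup the share with at least 50 cells per cluster, which leaves FP1 alone, was 21.7% in PCL and 18.0% in UBM; at a limit of 5 it was 44.0% in PCL and 43.5% in UBM, and at 20 it was 25.9% in PCL and 28.4% in UBM. At the makeup of UBM, PCL had 22.5% at a limit of 5 and 5.95% at 20. The counts of members past 2-fold stayed within 1.5 times under every scaling, minimum, pseudocount and choice of cells tried, at 7 to 8 lower in PCL and 8 to 10 lower in UBM against saline. Of 180 values of single members under alternatives, 70 moved out of their interval. Among the alternatives run, none whose interval lay on 1 side of 1 changed direction. H2-DMa in PCL over UBM, at 0.956 with an interval holding 1, was 1.06 with each cell counted alike and 1.10 without F2 and R3. Single members were not run without R1 or with equal weight for FP1 and RP3, the setting that reversed the summed PCL over UBM. Their direction under that setting is therefore not known. For H2-Aa, PCL over UBM was 1.61 within FP1 and 0.589 within RP3. Ciita, H2-DMb2 and Cd80 are limited by depth, with 42, 68 and 27 UMIs in saline.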
